A study of Saccharomyces cerevisiae with 36 samples.

Results

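Pellet RNA of budding yeast after 10 min at 42 °C was compared between cells with a mutated allele of the RNA helicase Ded1 and cells with the unmutated protein. The 4 libraries used, 2 per strain, are those that the labels give as insoluble RNA at 42 °C, out of 36 libraries in the series. The IDRm group carried Ded1_IDRm-mCherry and the WT group Ded1-mCherry, both in the W303 Ade+ background, so the mCherry tag is common to the strains. The labels do not describe the IDRm allele further, and how many clones stand behind each strain is not given in the sources used here. Each strain was started as duplicate pre-cultures, grown at 30 °C and split over 30, 40 and 42 °C for 10 min. Filtered cells were frozen, their RNA was taken up in hot acid phenol, and rRNA was depleted before the libraries were made. The soluble and total RNA at 42 °C and the pellets at 30 °C, 2 libraries per strain each, were used to place the pellet values.

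Ded1 is a DEAD-box helicase that helps the small ribosomal subunit scan the leaders of mRNAs to the start codon. On severe heat shock Ded1 and other translation factors leave the soluble cytoplasm and assemble into condensates, which spin down together with part of the cell's mRNA. The mRNA of a gene can therefore be high in the pellet because the cell holds much of it, or because a large part of it is insoluble, and a pellet library alone cannot tell these apart. In a culture, fewer cells with a transcript and less transcript per cell cannot be told apart either.

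DED1 itself (YOR204W, chromosome XV, 722911 to 724725, R64) had 1498 and 1558 CPM in the IDRm pellets, against 1376 and 1447 CPM in the WT pellets. The IDRm values lay just above the WT values, and the difference did not pass the test (log2 fold change 0.11 ± 0.13, adjusted p = 0.673). In soluble RNA at 42 °C DED1 had 1424 and 1378 CPM in the IDRm libraries, against 1901 and 2579 CPM in the WT libraries, a called difference (-0.68 ± 0.14, adjusted p = 0.000842), and in total RNA 949 and 1056 CPM in the IDRm libraries, against 1144 and 1555 CPM in the WT libraries (-0.43 ± 0.17, adjusted p = 0.0764). At 30 °C the pellets held 1474 and 1638 CPM in IDRm and 1431 and 1419 CPM in WT. Here CPM are counts scaled to a common TMM-adjusted library size, log2 fold changes are IDRm over WT with the standard error of the fit after ±, and a gene is called at an adjusted p under 0.05 in edgeR's quasi-likelihood test. Because each library is scaled on its own, a value says how large a part of that library a transcript makes up.

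The heat label could be checked on HSP104, which encodes the disaggregase that dissolves protein aggregates. It had 7410.2 and 8451 CPM in the IDRm pellets, against 8306 and 7897 CPM in the WT pellets at 42 °C, and 556 and 677 CPM in IDRm and 493 and 792 CPM in WT pellets at 30 °C. The IDRm pellets at 42 °C held 11975009 and 13730247 counts and the WT pellets 11248741 and 11374990, in a series that spans 4934241 to 13730247. The 2 IDRm pellets did not resemble each other as closely as the 2 WT pellets did. Over all genes tested the SD of the log2 difference between replicates was 0.403 in IDRm and 0.206 in WT, and it was 0.397 to 0.439 between an IDRm and a WT pellet. The difference ran with transcript length and, over a smaller range, with GC content and level. In the shortest quintile of genes by coding length (51 to 612 bases) the median log2 ratio of IDRm replicate 1 to replicate 2 was 0.29, and in the longest quintile (2103 to 14733 bases) it was -0.32. Between the WT pellets the same medians were 0.02 and 0.05. The IDRm ratio ran from -0.16 in the lowest to 0.14 in the highest quintile by GC content, and from 0.10 in the lowest to -0.15 in the highest quintile by CPM. Replicate 2 departed more from the WT mean, with -0.24 in the shortest and 0.22 in the longest quintile, against 0.03 and -0.11 for replicate 1. Of the genes called higher in IDRm, 25 were in the shortest and 80 in the longest quintile, and of those called lower 44 and 18. Leaving out a library moved the counts of most gene lists, and the counts without it are given below for part of them. Among those that moved but are not given are the RNA helicase and stress granule list, the respiratory chain list and the transporters called higher. The part of transcript length, GC content and level in the counts was not tested beyond alternatives with the length or the GC trend removed.

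**Figure D1:**
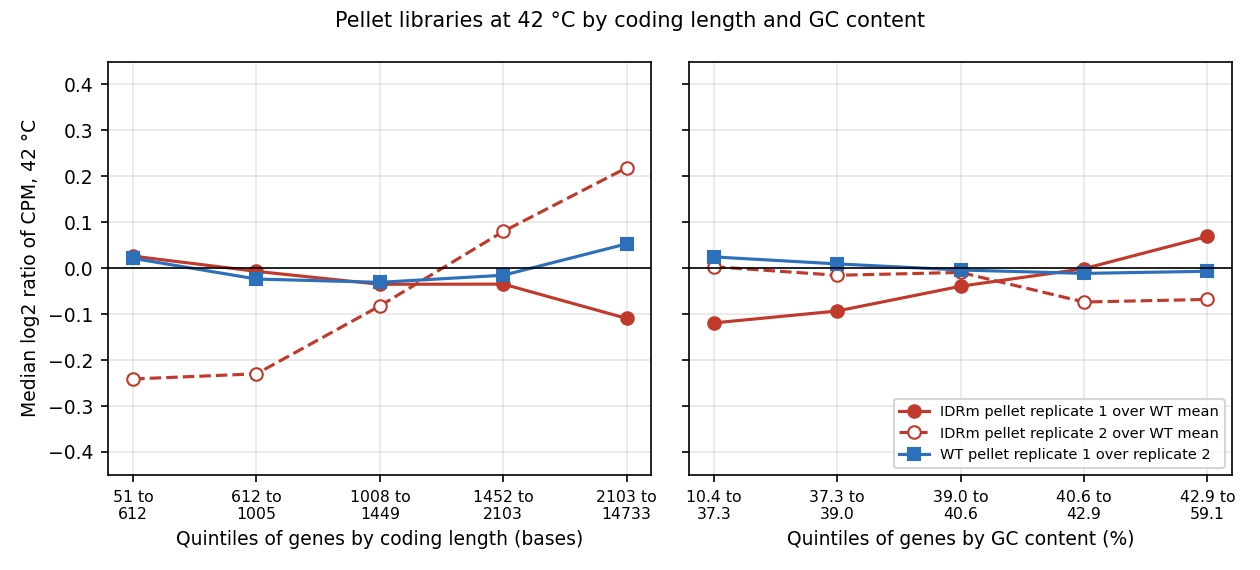
Median log2 ratio of CPM in the 42 °C pellets over quintiles of genes by coding length in bases (left) and GC content in percent (right), for each IDRm replicate over the WT mean and for WT replicate 1 over replicate 2. IDRm replicate 2 runs from -0.24 to 0.22 with length, IDRm replicate 1 from 0.03 to -0.11, and the WT ratio stays between -0.03 and 0.05.

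Of 6141 genes tested, 536 (8.73%) were called between the strains in the 42 °C pellets. Higher in IDRm were 281 genes (4.58%) and lower 255 (4.15%). There were 62 (1.01%) called with a change of at least 2-fold, and the median log2 fold change of all genes was -0.03. Without regard to the test, both IDRm libraries lay above both WT libraries in 22.7% of the genes and below them in 29.4%. Of the 8 highest named genes 4 act in glycogen metabolism, and of the 8 lowest 4 in the uptake or use of nitrogen sources. Without IDRm replicate 1 the number called was 685, and without IDRm replicate 2 it was 303. It was 127 without WT replicate 1 and 103 without WT replicate 2. Across these leave-out fits all 536 genes kept their sign, and 75 were called in every one, 45 higher and 30 lower in IDRm. With 2 libraries per group, the spread comes from all 24 pellet and soluble libraries together, and with the 4 pellets alone 62 genes were called. Members called with the 4 pellets alone numbered 10 of the Msn2/4 list, 9 of the glycogen, 6 of the nitrogen and 0 of the trehalose sets described below.

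**Figure D2:**
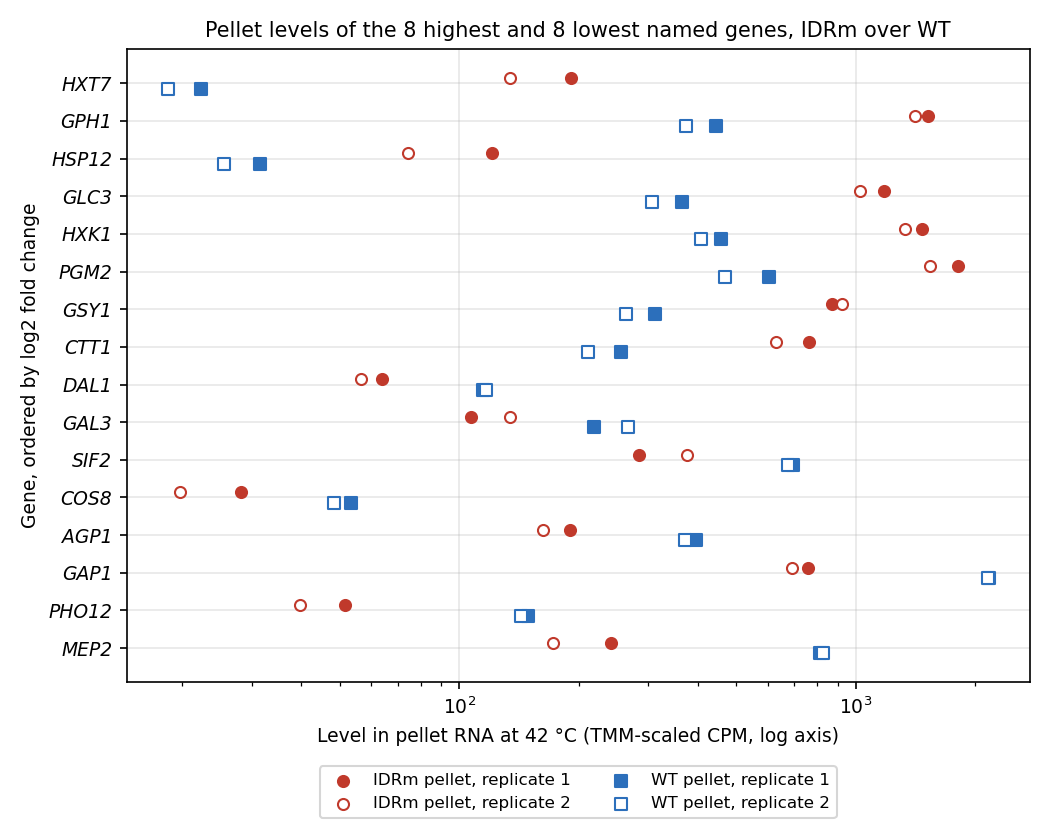
Level in pellet RNA at 42 °C (TMM-scaled CPM, log axis) of the 8 highest and the 8 lowest called genes with a mean of at least 32 CPM. Circles are IDRm and squares WT, filled for replicate 1 and open for replicate 2. Both IDRm libraries lie to the right of both WT libraries in the upper 8 genes and to the left in the lower 8.

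Glycogen is the yeast's branched glucose store, built from UDP-glucose and broken down by phosphorolysis, and its enzymes belong to the general stress response that the transcription factors Msn2 and Msn4 activate through AGGGG promoter elements. GPH1 (YPR160W, chromosome XVI, 861306 to 864014), glycogen phosphorylase, had 1519 and 1409 CPM in the IDRm pellets, against 446 and 374 CPM in the WT pellets. Its log2 fold change was 1.84 ± 0.16, adjusted p = 9.38e-07. Both IDRm libraries stood far above both WT libraries. GLC3 (YEL011W, chromosome V, 133120 to 135234), the branching enzyme, had 1179.8 and 1023 CPM in the IDRm pellets, against 365 and 307 CPM in the WT pellets (1.71 ± 0.16, adjusted p = 2.2e-06). GSY1 (YFR015C, chromosome VI, 174265 to 176391), a glycogen synthase, had 869 and 923 CPM in the IDRm pellets, against 312 and 264 CPM in the WT pellets (1.64 ± 0.17, adjusted p = 4.62e-06). PGM2 (YMR105C, chromosome XIII, 475897 to 477606), the phosphoglucomutase that links glucose 6-phosphate to glycogen, had 1806 and 1539.7 CPM in the IDRm pellets, against 605 and 469 CPM in the WT pellets (1.64 ± 0.20, adjusted p = 3.72e-05). In none of these 4 genes did the groups overlap, and each was called in all 4 leave-out fits. GPH1, GLC3 and GSY1 are in the longest quintile of genes.

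The promoters of GPH1, GLC3 and PGM2 are shown because these genes were higher together. Each runs from 450 to 151 bases before the coding start, read 5′ to 3′ on the gene's strand from the R64 genome. Capitals mark AGGGG or its reverse complement CCCCT. The windows lie at chrXVI:860856-861155, plus strand (GPH1), chrV:132670-132969, plus strand (GLC3) and chrXIII:477757-478056, minus strand (PGM2).
GPH1: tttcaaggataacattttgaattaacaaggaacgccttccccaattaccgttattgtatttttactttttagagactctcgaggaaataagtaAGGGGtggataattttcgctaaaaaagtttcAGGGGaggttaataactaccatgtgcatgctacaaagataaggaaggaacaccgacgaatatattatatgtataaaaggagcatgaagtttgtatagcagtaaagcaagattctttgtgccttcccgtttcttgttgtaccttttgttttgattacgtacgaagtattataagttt
GLC3: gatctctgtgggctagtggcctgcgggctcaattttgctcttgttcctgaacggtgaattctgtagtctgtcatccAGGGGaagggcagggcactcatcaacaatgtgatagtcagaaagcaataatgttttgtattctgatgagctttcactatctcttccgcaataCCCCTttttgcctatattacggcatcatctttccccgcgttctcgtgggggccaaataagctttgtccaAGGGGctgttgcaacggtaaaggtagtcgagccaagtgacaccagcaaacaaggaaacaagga
PGM2: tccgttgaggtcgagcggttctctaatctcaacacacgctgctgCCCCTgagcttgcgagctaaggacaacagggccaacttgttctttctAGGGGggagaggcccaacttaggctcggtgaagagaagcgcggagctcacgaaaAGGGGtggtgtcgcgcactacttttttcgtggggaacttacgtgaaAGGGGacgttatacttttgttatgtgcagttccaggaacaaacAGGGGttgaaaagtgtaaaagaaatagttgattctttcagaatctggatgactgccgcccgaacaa
The GPH1 window held 2 matches, GLC3 3 and PGM2 5. GSY1, also among the leading genes but not shown, held 1. Of the glycogen genes described below, GIP2, GLG1 and GAC1 were called higher and held 0, and the uncalled PIG2 held 2. Over all 5993 windows of this length, 23.4% held at least 1 match on either strand and 3.79% held 2 or more. Among the windows of genes called higher in IDRm pellets these shares were 44.3% and 13.2% of 273, and among those called lower 19.7% and 3.15% of 254. A match is a string of letters, not a bound site. The motifs were chosen after the values were seen.

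A set of 15 genes of glycogen synthesis and breakdown was put together after the leading genes had been seen, so its counts describe the set and support nothing. Of its members 11 were called higher and 0 lower, where 4.58% and 4.15% of all genes were. The median was 1.15 against -0.03 over all genes, and 11 of its 15 promoter windows held AGGGG. Without IDRm replicate 1, IDRm replicate 2, WT replicate 1 or WT replicate 2 the set had 10, 11, 10 and 9 members called higher, and with the length trend removed 11 (median 1.07). Members beyond the leading 4 were GIP2 (1.49 ± 0.18), which targets the phosphatase Glc7, the sporulation glucoamylase SGA1 (1.34 ± 0.14), the synthase GSY2 (1.17 ± 0.14), the primer protein GLG1 (1.15 ± 0.14) and the debranching enzyme GDB1 (0.78 ± 0.13). The Glc7 targeting subunit GAC1 was at 0.69 ± 0.14 and UGP1, which makes UDP-glucose, at 0.57 ± 0.14. Not called were PIG2 (0.67 ± 0.26), PIG1 (0.21 ± 0.14), PGM1 (0.12 ± 0.13) and GLG2 (-0.01 ± 0.21). PGM1 is the other phosphoglucomutase isozyme and had 343 and 330.5 CPM in the IDRm pellets, against 302 and 316 CPM in the WT pellets.

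The strain difference in glycogen genes was tested against that at 30 °C, and for 6 of the 15 genes it was called larger at 42 °C. In the 30 °C pellets 2 of the 15 genes were called higher, GPH1 and SGA1. Over all genes 0.586% were called higher for the difference between temperatures and 1.89% in the 30 °C pellets. GLC3 had 96.9 and 125 CPM in IDRm and 118 and 107 CPM in WT pellets at 30 °C, and the strain difference at 42 °C exceeded that at 30 °C by 1.74 ± 0.23, adjusted p = 0.000509. For GSY1 the excess was 1.84 ± 0.24, for PGM2 1.56 ± 0.28 and for GPH1 1.20 ± 0.22, all called. At 30 °C GPH1 was at 0.64 ± 0.16, adjusted p = 0.0296. At 40 °C, where no test was run, the pellets held more of these transcripts than at 42 °C in both strains. GPH1 had 4078 and 4296 CPM in the IDRm pellets at 40 °C, against 2357 and 2061 CPM in the WT pellets at 40 °C. GLC3 had 2188 and 2362 CPM in the IDRm pellets at 40 °C, against 1254 and 1165 CPM in the WT pellets at 40 °C. The groups did not overlap at 40 °C in either gene, and the ratio between the strains was smaller there than at 42 °C.

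The glycogen genes differed between the strains in the other RNA fractions too. In soluble RNA at 42 °C GLC3 had 564 and 489.9 CPM in the IDRm libraries, against 107 and 87.0 CPM in the WT libraries (2.44 ± 0.17), and in total RNA 679.9 and 616 CPM in the IDRm libraries, against 190.3 and 187 CPM in the WT libraries (1.78 ± 0.15). Of the 15 members 13 were called higher in soluble and 11 in total RNA, where 13.8% and 12.3% of all genes were called higher. No member was called for a pellet difference unlike that in soluble or in total RNA.

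**Figure D3:**
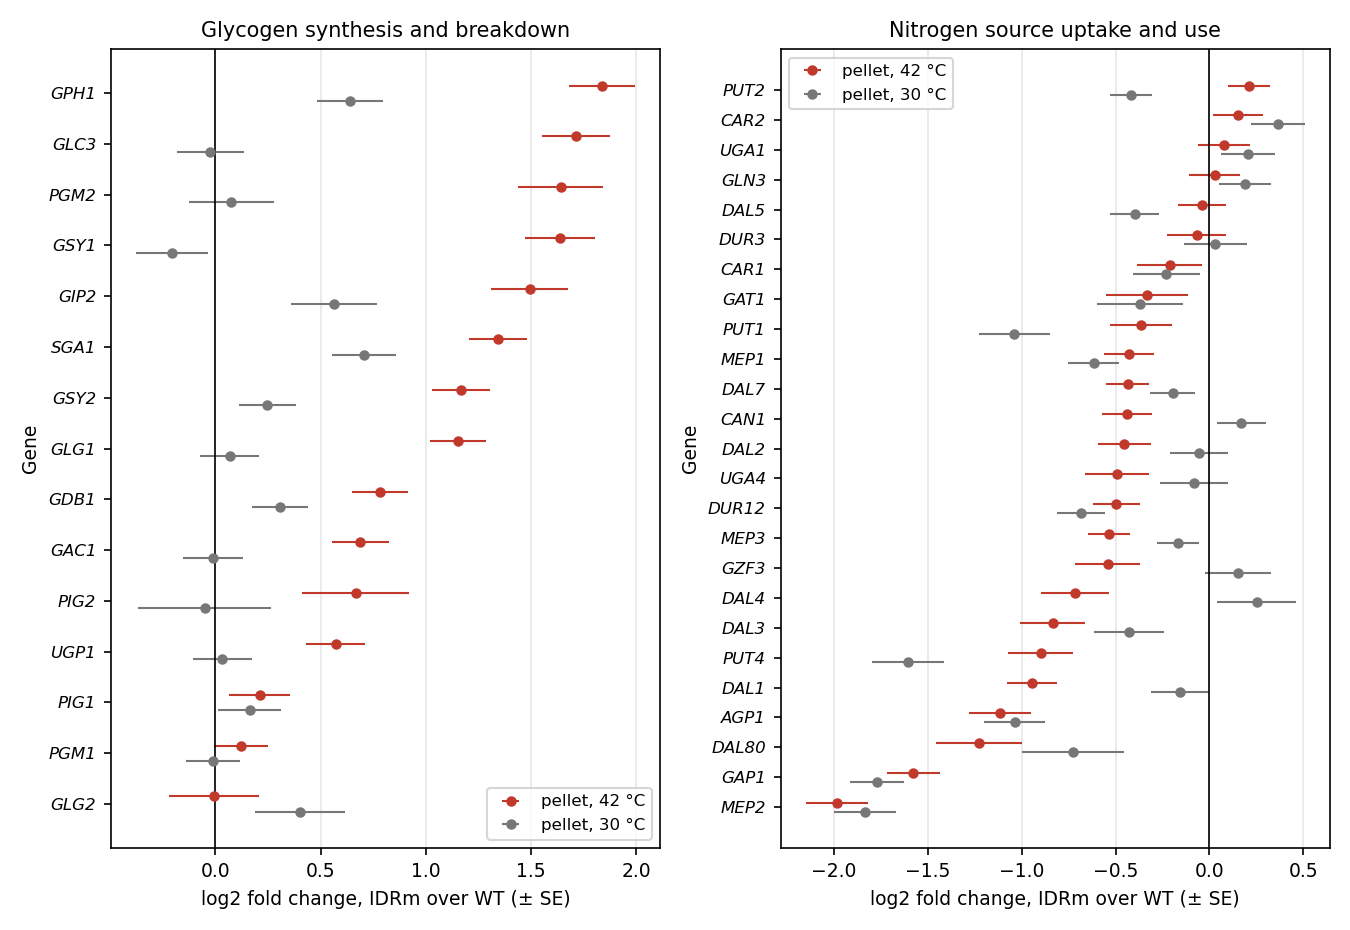
log2 fold change, IDRm over WT, with its standard error as bars, of the genes of glycogen synthesis and breakdown (left) and of nitrogen source uptake and use (right) in pellets at 42 °C (red) and at 30 °C (grey). The leading glycogen genes are near 1.6 to 1.8 at 42 °C and, apart from GPH1, near 0 at 30 °C, while MEP2, GAP1 and AGP1 lie below -1 at both temperatures.

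Hexose uptake and phosphorylation genes feed glucose to these enzymes. HXT7 (YDR342C, chromosome IV, 1154216 to 1155928), a high-affinity glucose transporter that glucose represses, was the highest of the named genes, with 192 and 134 CPM in the IDRm pellets, against 22.4 and 18.4 CPM in the WT pellets (2.998 ± 0.29, adjusted p = 6.77e-06). HXT6 next to it, named after its values were seen, is nearly identical in sequence and had 29.2 and 25.1 CPM in the IDRm pellets, against 5.41 and 5.05 CPM in the WT pellets, so reads may be split between them and both values are uncertain. HXK1 (YFR053C, chromosome VI, 253592 to 255049), the hexokinase used away from high glucose, had 1470.3 and 1332 CPM in the IDRm pellets, against 458 and 406 CPM in the WT pellets (1.70 ± 0.20, adjusted p = 2.37e-05). In HXK1 and HXT7 the strain difference at 42 °C exceeded that at 30 °C, by 2.22 ± 0.28 and 3.08 ± 0.40, both called. In a set of 4 sugar kinase genes chosen after the values were seen, GLK1 (0.70 ± 0.17) and EMI2 (0.76 ± 0.18) were also called higher. The set had 3 members called higher, 2 and 3 without IDRm replicate 1 or 2 and 1 without either WT replicate. HXK2, the hexokinase of growth on glucose, was not called and had 694 and 575 CPM in the IDRm pellets, against 854 and 821 CPM in the WT pellets (-0.40 ± 0.18).

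Of 32 genes on the Msn2/4 list 22 were called higher and 0 lower in IDRm pellets, where 4.58% and 4.15% of all genes were. The median was 0.62 against -0.03 over all genes. The list shares genes with the glycogen and sugar kinase sets above, GPH1 and HXK1 among them, so these are not separate results. Members called higher numbered 18 without IDRm replicate 1, 18 without IDRm replicate 2, 12 without WT replicate 1 and 9 without WT replicate 2. CTT1 (YGR088W, chromosome VII, 654634 to 656322), the cytosolic catalase that removes hydrogen peroxide, had 761 and 629 CPM in the IDRm pellets, against 256 and 211 CPM in the WT pellets (1.57 ± 0.15, adjusted p = 2.2e-06). HSP12 (YFL014W, chromosome VI, 107256 to 107585), a small membrane-stabilising protein, had 121 and 74.4 CPM in the IDRm pellets, against 31.5 and 25.5 CPM in the WT pellets (1.78 ± 0.49, adjusted p = 0.0394). Its groups did not overlap either, but the call was lost in each of the 4 leave-out fits, where the value ran from 1.38 to 2.09. HSP12 was far lower in pellets than in soluble RNA, which had 1419.5 and 1091 CPM in the IDRm libraries, against 326 and 77.7 CPM in the WT libraries. In soluble RNA 25 of the 32 genes were called higher and in total RNA 24, while in pellets at 30 °C 1 was. Over all genes 13.8% were called higher in soluble RNA, 12.3% in total RNA and 1.89% in pellets at 30 °C. Compared with soluble RNA the pellet effect was called lower for 3 of the 32, and for 2.3% of all genes.

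Trehalose, the disaccharide that protects yeast proteins in heat, is made by the TPS genes and cleaved by the trehalases NTH1 and NTH2. Of 6 such genes, a set chosen after the values were seen, 5 were called higher, where 4.58% of all genes were. The median of the 6 was 0.47. The largest was NTH2 at 0.76 ± 0.15, adjusted p = 0.00329, with 370.0 and 423 CPM in the IDRm pellets, against 246 and 221 CPM in the WT pellets. NTH1 was at 0.57 ± 0.12, the synthase TPS1 at 0.52 ± 0.15, the phosphatase TPS2 at 0.42 ± 0.13 and the regulatory subunit TPS3 at 0.36 ± 0.11. TPS2, TPS3, NTH1 and NTH2 are in the longest quintile of genes, and with the length trend removed 3 of the 6 were called. With IDRm replicate 1 left out 4 were called, with IDRm replicate 2 left out 1, with WT replicate 1 left out 1 and with WT replicate 2 left out 0. TSL1, the other regulatory subunit, was not called (0.17 ± 0.38). The shared fit behind its standard error includes WT pellets at 30 °C with TSL1 at 200 and 454 CPM.

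Hsf1 is the heat shock factor that drives chaperone genes. Of 27 such genes 1 was called higher and 0 lower, where 4.58% and 4.15% of all genes were, and the median was 0.05. The called gene was AHA1 (0.47 ± 0.14, adjusted p = 0.0358), an Hsp90 co-chaperone, with 657 and 581 CPM in the IDRm pellets, against 429 and 466 CPM in the WT pellets. It was called without IDRm replicate 2 but in none of the other leave-out fits. SSA4, the heat-inducible Hsp70, had 9491 and 11001 CPM in the IDRm pellets, against 10135 and 10033 CPM in the WT pellets (0.02 ± 0.57). The groups overlapped, as they did for HSP104 (-0.03 ± 0.25), for the small heat shock protein HSP42 with 1402 and 1824 CPM in the IDRm pellets, against 1601 and 1509 CPM in the WT pellets (0.05 ± 0.72) and for HSP26 with 1262 and 867 CPM in the IDRm pellets, against 1026 and 923 CPM in the WT pellets (0.13 ± 0.84). HSP30, a plasma membrane heat shock protein, had 3808 and 2130.1 CPM in the IDRm pellets, against 3420.3 and 3147 CPM in the WT pellets (-0.15 ± 1.13), the widest gap between the IDRm replicates of these genes. The standard errors of SSA4, HSP42, HSP26 and HSP30 come from the shared fit, which includes the WT pellets at 30 °C. In these HSP30 had 8.57 and 185 CPM, SSA4 190 and 605 CPM, HSP42 23.0 and 105 CPM and HSP26 9.60 and 45.4 CPM. Replicate 2 was the higher in each of these genes, and the comparisons with 30 °C use the same libraries. The cause was not tested.

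Genes for nitrogen sources were among the lowest of the named genes. Yeast takes up ammonium through the Mep permeases and amino acids through permeases such as Gap1, and when good sources run short the GATA factors Gln3 and Gat1 activate these genes through GATAAG elements. MEP2 (YNL142W, chromosome XIV, 357453 to 358952), the high-affinity ammonium permease and sensor, had 242 and 173 CPM in the IDRm pellets, against 812 and 826 CPM in the WT pellets (-1.98 ± 0.17, adjusted p = 9.38e-07). GAP1 (YKR039W, chromosome XI, 515063 to 516871), the general amino acid permease, had 759.8 and 689.6 CPM in the IDRm pellets, against 2165 and 2157 CPM in the WT pellets (-1.58 ± 0.14, adjusted p = 1.56e-06). AGP1 (YCL025C, chromosome III, 76018 to 77919), a broad amino acid permease, had 191 and 163 CPM in the IDRm pellets, against 396 and 370.3 CPM in the WT pellets (-1.12 ± 0.16, adjusted p = 0.0003). In all 3 genes both IDRm pellets lay below both WT pellets by a wide margin, and all 3 were called in each leave-out fit.

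The promoter windows of MEP2 and GAP1, taken as above, are shown because these genes were lower together, with GATAAG or its reverse complement CTTATC in capitals. They lie at chrXIV:357003-357302, plus strand (MEP2) and chrXI:514613-514912, plus strand (GAP1).
MEP2: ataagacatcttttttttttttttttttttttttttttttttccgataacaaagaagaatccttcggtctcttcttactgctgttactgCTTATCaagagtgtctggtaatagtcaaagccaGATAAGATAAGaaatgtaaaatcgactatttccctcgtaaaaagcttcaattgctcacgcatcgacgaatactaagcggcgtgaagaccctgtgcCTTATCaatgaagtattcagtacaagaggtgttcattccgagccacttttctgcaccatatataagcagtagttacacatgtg
GAP1: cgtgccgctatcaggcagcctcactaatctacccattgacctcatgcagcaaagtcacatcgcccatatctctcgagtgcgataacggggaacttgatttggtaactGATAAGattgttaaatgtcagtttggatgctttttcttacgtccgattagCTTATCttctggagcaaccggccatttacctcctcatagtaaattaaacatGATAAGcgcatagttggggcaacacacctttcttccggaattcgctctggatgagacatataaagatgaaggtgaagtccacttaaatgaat
MEP2 held 4 matches, 2 of which overlap by 1 letter, and its window overlaps the reading frame YNL143C. GAP1 held 3. At least 1 match was found in 14.2% of all windows, in 12.5% of those of genes called higher and in 20.5% of those of genes called lower in IDRm pellets.

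A set of 25 genes for nitrogen source uptake and use was likewise put together after the leading genes had been seen. In it 13 genes were called lower and 0 higher, where 4.15% and 4.58% of all genes were. The median was -0.45, and 21 of its windows held GATAAG. Members called lower numbered 10 and 7 without IDRm replicate 1 or 2, and 8 and 6 without WT replicate 1 or 2. DAL80 (-1.23 ± 0.23), a GATA repressor, the proline permease PUT4 (-0.90 ± 0.17), the ureidoglycolate enzyme DAL3 (-0.83 ± 0.17) and the allantoin permease DAL4 (-0.71 ± 0.18) were among them. DAL1, the allantoinase that opens the allantoin ring, had 63.8 and 56.4 CPM in the IDRm pellets, against 115 and 117 CPM in the WT pellets (-0.95 ± 0.13, adjusted p = 0.000153). GLN3 (0.03 ± 0.14) and GAT1 (-0.33 ± 0.22), which encode the activators, were not called.

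MEP2, GAP1 and AGP1 were also called lower at 30 °C. MEP2 had 123 and 144 CPM in IDRm and 454 and 496 CPM in WT pellets there (-1.83 ± 0.17, adjusted p = 2.97e-06). GAP1 was at -1.77 ± 0.14 and AGP1 at -1.04 ± 0.16 at 30 °C. Of the 25 genes 7 were called lower there, where 1.07% of all genes were. Permease genes called at 42 °C but not at 30 °C were MEP3 (-0.54 ± 0.11 at 42 °C, -0.17 ± 0.11 at 30 °C), DAL4 (-0.71 ± 0.18 and 0.25 ± 0.21) and CAN1 (-0.44 ± 0.13 and 0.17 ± 0.13). No gene of the set was called for a difference between the strain effects at 42 and 30 °C, where MEP2 had -0.15 ± 0.23, adjusted p = 0.885 and GAP1 0.19 ± 0.20, adjusted p = 0.793. In total RNA at 42 °C MEP2 had 208 and 211 CPM in the IDRm libraries, against 583 and 750.2 CPM in the WT libraries (-1.67 ± 0.13), and in soluble RNA it was at -1.93 ± 0.17. Over the set 4 genes were called higher and 10 lower in soluble RNA, and 3 higher and 14 lower in total RNA. Of all genes 13.8% were called higher and 18.9% lower in soluble RNA, and 12.3% and 11% in total RNA. DAL2, allantoicase, was at 0.98 ± 0.19 in soluble RNA and -0.45 ± 0.14 in the pellet, and CAR2, of arginine breakdown, at 1.39 ± 0.17 and 0.15 ± 0.13. The pellet effect was called lower than the soluble one for these genes, DAL1 and GZF3, 4 of the 25. Over all genes it was called lower for 2.3%.

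Further genes among the 8 lowest were of mixed function. PHO12, a secreted acid phosphatase, had 51.6 and 39.6 CPM in the IDRm pellets, against 149 and 143 CPM in the WT pellets (-1.68 ± 0.16, adjusted p = 2.92e-06), and it too was lower at 30 °C (-1.40 ± 0.16). PHO11 is nearly identical to it, so the share of reads between them is uncertain. COS8, of a subtelomeric multigene family and so uncertain for the same reason, was at -1.09 ± 0.21, adjusted p = 0.00297. SIF2, a subunit of the Set3 histone deacetylase complex, had 284 and 374 CPM in the IDRm pellets, against 695 and 677 CPM in the WT pellets (-1.06 ± 0.17, adjusted p = 0.000611), while at 30 °C it was at 0.01. GAL3, the galactose sensor of the GAL pathway, had 107 and 134 CPM in the IDRm pellets, against 219 and 267 CPM in the WT pellets (-1.01 ± 0.23, adjusted p = 0.0123). The call of GAL3 was lost without IDRm replicate 1 and without WT replicate 2.

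Genes of ribosome assembly are transcribed strongly in growing cells and shut down under stress. Of 69 such genes 0 were called higher and 24 lower, where 4.58% and 4.15% of all genes were, and the median was -0.53. The counts were 15 and 13 without IDRm replicate 1 or 2, and 9 and 4 without WT replicate 1 or 2, and with the 4 pellets alone 3 genes were called. RPF2, which places the 5S RNA particle in the large subunit, had 28.3 and 29.6 CPM in the IDRm pellets, against 50.8 and 54.6 CPM in the WT pellets (-0.86 ± 0.17, adjusted p = 0.00329). PUF6, a nucleolar assembly factor, had 27.6 and 36.9 CPM in the IDRm pellets, against 59.6 and 56.9 CPM in the WT pellets (-0.85 ± 0.18, adjusted p = 0.00627). Neither gene's groups overlapped. RPF2 was not called without WT replicate 2, and PUF6 not without WT replicate 1.

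The median over these genes had the other sign without heat. In the 30 °C pellets, where 182 of 6141 genes (2.96%) were called, 116 (1.89%) higher and 66 (1.07%) lower, 0 of the 69 genes were called and the median was 0.35. The difference between the strain effects at 42 and 30 °C was called for 83 genes (1.35%), 36 (0.586%) higher and 47 (0.765%) lower, and 18 of the 47 were on the ribosome biogenesis list. DBP2, an RNA helicase that also acts in ribosomal RNA processing, had 172 and 163 CPM in the IDRm pellets, against 283 and 312 CPM in the WT pellets at 42 °C (-0.83 ± 0.19, adjusted p = 0.0109). At 30 °C it had 958 and 825 CPM in IDRm and 517 and 704 CPM in WT pellets, and the difference between the effects was -1.37 ± 0.27, adjusted p = 0.0124. NSR1, the yeast nucleolin, had 55.0 and 45.2 CPM in the IDRm pellets, against 83.5 and 82.7 CPM in the WT pellets at 42 °C, uncalled (-0.73 ± 0.23, adjusted p = 0.0551), and a difference between the effects of -1.46 ± 0.32. TRM11, a tRNA guanine methyltransferase subunit, had 31.4 and 29.5 CPM in the IDRm pellets, against 53.3 and 57.0 CPM in the WT pellets (-0.86 ± 0.15, adjusted p = 0.00198) and -1.34 ± 0.22 for the difference between the effects. INO1, inositol phosphate synthase, had 119 and 125 CPM in IDRm and 134 and 138 CPM in WT pellets at 42 °C, against 167 and 162 CPM in IDRm and 55.5 and 84.1 CPM in WT pellets at 30 °C, where the strains stood further apart. The number called for this difference was 7 without IDRm 30 °C pellet replicate 1, 13 without WT 30 °C pellet replicate 1, 29 without WT 42 °C pellet replicate 1 and 14 without WT 42 °C pellet replicate 2.

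Transcripts of the translation machinery had fewer calls than the 8.73% over all genes in one list and more in the others. Of 132 ribosomal protein genes 0 were called higher and 5 lower (median -0.11), and these calls became 0 in 3 of the leave-out fits and 14 without IDRm replicate 1. The IDRm replicates differed here by a median log2 ratio of 0.50, more than the strains. With the GC trend removed 10 of the 132 were called lower. RPL18B was at -0.77 ± 0.19, adjusted p = 0.0154 and RPS26B at -0.75 ± 0.19, adjusted p = 0.0189, both with near-identical paralogs and so uncertain. RPL3, of the large subunit, had 3578 and 2733 CPM in the IDRm pellets, against 3545 and 3824 CPM in the WT pellets, and the groups overlapped. Soluble RNA was unlike this, with 101 of the 132 genes called lower in IDRm and 1 higher (median -1.003), where 2010 of 6141 genes (32.7%) were called in all, 849 (13.8%) higher and 1161 (18.9%) lower. In total RNA 63 of 133 were called lower (median -0.43), with 1423 of 6090 genes (23.4%) called in all, 751 (12.3%) higher and 672 (11%) lower.

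Of 24 initiation factor genes 1 was called higher and 4 lower. The 4 became 3 and 1 without IDRm replicate 1 or 2, and none of the 24 was called without either WT replicate. GCD7, the beta subunit of the eIF2B exchange factor, had 105 and 88.2 CPM in the IDRm pellets, against 52.9 and 63.5 CPM in the WT pellets (0.73 ± 0.18, adjusted p = 0.0136). TIF35, a subunit of eIF3, had 129 and 95.2 CPM in the IDRm pellets, against 161 and 172 CPM in the WT pellets (-0.57 ± 0.16, adjusted p = 0.0281). Each was called in only 1 of the 4 leave-out fits. Among 12 elongation and termination genes 1 was called higher and 3 lower, with 2 and 1 lower without IDRm replicate 1 or 2 and no call without either WT replicate. EFB1, the exchange factor of eEF1A, had 523 and 535 CPM in the IDRm pellets, against 829 and 803 CPM in the WT pellets (-0.63 ± 0.14, adjusted p = 0.0092), and RLI1, which recycles ribosomes, had 57.9 and 63.5 CPM in the IDRm pellets, against 96.2 and 92.6 CPM in the WT pellets (-0.64 ± 0.16, adjusted p = 0.0202). The groups did not overlap in these 4 genes. With the GC trend removed 7 of the 12 elongation and termination genes were called lower. EFB1 lost its call without either WT replicate, and RLI1 in every leave-out fit.

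Of 20 genes of RNA helicases and stress granule proteins, the class of Ded1 itself, 0 were called higher and 2 lower. Over all genes 4.58% and 4.15% were. The median of the list was 0.05, and 0.19 and -0.14 without IDRm replicate 1 or 2, so its sign rested on the replicate used. TMA46, a ribosome-associated protein, had 31.4 and 39.2 CPM in the IDRm pellets, against 52.8 and 50.6 CPM in the WT pellets (-0.55 ± 0.16, adjusted p = 0.0337), and was called only without IDRm replicate 2 among the leave-out fits. PAB1, the poly(A)-binding protein that condenses with heat, had 786 and 865 CPM in the IDRm pellets, against 656 and 669.7 CPM in the WT pellets. The IDRm pellets were above the WT pellets, without passing the test (0.32 ± 0.16, adjusted p = 0.259). In soluble RNA PAB1 had 254 and 243 CPM in the IDRm libraries, against 580.3 and 576 CPM in the WT libraries (-1.22 ± 0.17, adjusted p = 2.85e-05), and in total RNA 179.5 and 193 CPM in the IDRm libraries, against 456 and 329 CPM in the WT libraries (-1.07 ± 0.28, adjusted p = 0.0203). The order of the strains in the pellet was opposite to that in soluble and total RNA.

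Whether the strain effect in the pellet departed from that in soluble RNA at 42 °C was tested as an interaction, with 427 genes called (6.95%), 286 (4.66%) higher in the pellet relative to soluble RNA and 141 (2.3%) lower. These values depend on the soluble libraries as much as on the pellets. Without WT soluble replicate 1 the number was 1521, without WT pellet replicate 1 it was 188 and without WT pellet replicate 2 it was 208. With only the 8 libraries of those groups it was 0, against 1496 genes at an unadjusted p under 0.05 and 659 called by DESeq2 in the full model. RPP0, the ribosomal stalk protein P0, had 418 and 257 CPM in the IDRm pellets, against 505 and 468 CPM in the WT pellets and 2355 and 1606 CPM in the IDRm soluble libraries, against 258 and 379 CPM in the WT soluble libraries (interaction -3.17 ± 0.29, adjusted p = 2.43e-06). VIP1, an inositol pyrophosphate kinase, had 324 and 455 CPM in the IDRm pellets, against 359 and 339 CPM in the WT pellets and 51.2 and 62.2 CPM in the IDRm soluble libraries, against 218 and 176 CPM in the WT soluble libraries (1.96 ± 0.21, adjusted p = 1.5e-05). In both genes the strains differed more in soluble RNA than in the pellet. On the ribosomal protein list, which holds RPP0, the highest strain effect in total RNA at 42 °C was 0.19. For a pellet effect unlike that in total RNA 0 members of that list were called.

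For the other genes at the ends of this comparison the strain effect in soluble RNA was likewise the larger in size. SCW10, a cell wall glucanase, was at 0.37 ± 0.14 in the pellet and -1.60 ± 0.15 in soluble RNA. The ribosomal protein genes RPS12 and RPL1A, of which RPL1A has a near-identical paralog, were at 1.13 ± 0.49 and 0.66 ± 0.37 in the pellet, uncalled, and at -1.53 ± 0.50 and -1.69 ± 0.38 in soluble RNA. RPS12 had 1138 and 673 CPM in the IDRm pellets, against 454 and 371 CPM in the WT pellets, without overlap and with the IDRm replicates further apart than the WT ones. On the other side were ILV6, of branched amino acid synthesis (0.57 ± 0.15 in the pellet, 2.60 ± 0.16 in soluble RNA), PIB2, a regulator of the TORC1 kinase (0.14 ± 0.18 and 2.15 ± 0.21), and ACH1, a mitochondrial CoA transferase (0.24 ± 0.20 and 2.17 ± 0.21). Of these 3 only ILV6 was called in the pellet, and it was not called without IDRm replicate 1, WT replicate 1 or WT replicate 2.

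Against total RNA, the strain effect in the pellet departed for 20 of 6166 genes (0.324%), 18 (0.292%) higher and 2 (0.0324%) lower. PAB1 was the highest of those named, at 1.45 ± 0.32, adjusted p = 0.0441. GCD7 was at 1.17 ± 0.22 and NAN1, a small-subunit processome protein, at 1.06 ± 0.23. GVP36, a membrane-bending protein of Golgi vesicles, had 236 and 182 CPM in the IDRm pellets, against 102 and 108 CPM in the WT pellets (0.99 ± 0.15, adjusted p = 0.000317), whereas in total RNA it had 168 and 227 CPM in the IDRm libraries, against 179.8 and 225 CPM in the WT libraries (-0.04 ± 0.17). SNZ1, of vitamin B6 synthesis, was the lowest at -1.31 ± 0.19, with 47.7 and 45.7 CPM in the IDRm pellets, against 31.1 and 32.2 CPM in the WT pellets and 88.3 and 82.8 CPM in the IDRm total libraries, against 23.2 and 21.7 CPM in the WT total libraries. The number called was 474 without IDRm pellet replicate 1 and 11 without IDRm pellet replicate 2. It was 2 without WT pellet replicate 1, 4 without WT pellet replicate 2, and 2, 4 and 2 without IDRm total replicate 1, IDRm total replicate 2 or WT total replicate 1.

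The pellet calls were set beside those in other RNA of the same cultures. Of the 281 genes higher in IDRm pellets, 174 were among the 849 called higher in soluble RNA and 21 among the 1161 called lower. In total RNA 175 of the 281 were among the 751 called higher and 2 among the 672 called lower, and in the 30 °C pellets 46 were among the 116 called higher and 1 among the 66 called lower. Of the 255 genes lower in IDRm pellets, 155 were among the 1161 called lower in soluble RNA and 1 among the 849 called higher. In total RNA 107 of the 255 were among the 672 called lower and 0 among the 751 called higher, and in the 30 °C pellets 26 were among the 66 called lower and 1 among the 116 called higher. QCR2, a core subunit of respiratory complex III, was one that differed from soluble RNA, with 233 and 211 CPM in the IDRm pellets, against 133 and 136 CPM in the WT pellets (0.72 ± 0.12, adjusted p = 0.0014) and -0.42 ± 0.13 in soluble RNA.

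Amino acid biosynthesis had 5 of 62 members called higher and 3 lower, where 4.58% and 4.15% of all genes were. Those higher numbered 3 and 7 without IDRm replicate 1 or 2 and 1 and 3 without WT replicate 1 or 2, and those lower 4 and 0, and 1 and 0. ARG4, argininosuccinate lyase of arginine synthesis, had 469.9 and 364 CPM in the IDRm pellets, against 209.9 and 244 CPM in the WT pellets (0.88 ± 0.18, adjusted p = 0.00606), a call lost without WT replicate 1. Of 37 plasma membrane transporters 4 were called higher and 12 lower, led by HXT7 and MEP2. Both are described above, MEP2 in the nitrogen set, so these are not separate results. In the 30 °C pellets 6 of the 37 were called lower, where 1.07% of all genes were. The 12 became 8 and 5 without IDRm replicate 1 or 2, and 5 and 4 without WT replicate 1 or 2. PMA1, the proton pump of the plasma membrane, had 10426 and 11493 CPM in the IDRm pellets, against 13136 and 12295 CPM in the WT pellets and was not called (-0.21 ± 0.16).

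Over all genes 4.58% were called higher and 4.15% lower in the 42 °C pellets, and the counts of the next lists stand beside these shares. Respiratory chain genes had 2 of 34 called higher. Their median was -0.08, and -0.27 and 0.04 without IDRm replicate 1 or 2. Glucose-repressed genes had 1 of 20 called higher, the lactate permease JEN1 (0.63 ± 0.17, adjusted p = 0.0285). The proteasome list had 2 of 32 called lower, the core subunit PRE9 (-0.48 ± 0.13) and the lid subunit RPN9 (-0.45 ± 0.12). Spindle and checkpoint genes had 1 of 22 called higher, the checkpoint kinase BUB1 (0.64 ± 0.17), and 1 lower, its partner BUB3 (-0.66 ± 0.13, adjusted p = 0.00316). BUB3 had 138 and 107 CPM in the IDRm pellets, against 191 and 197 CPM in the WT pellets. Among the named members, BUB3 and QCR2 were called in every leave-out fit, while JEN1, RPN9 and BUB1 were called in 1 and PRE9 in none. Mitochondrial ribosomal proteins had 1 of 64 called lower. Without IDRm replicate 1 this list had 8 and the proteasome list 6 called lower, and with any other pellet library left out both had 0 called lower. No member was called among 16 glycolysis, 29 ER, 27 cell wall, 10 histone and 8 mitochondrially encoded genes. Without IDRm replicate 1 some glycolysis, ER and histone genes were called lower. With the GC trend removed 4 glycolysis, 2 cell wall and 1 histone gene were called lower, and with the length trend removed 1 ER and 2 cell wall genes.

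**Figure D4:**
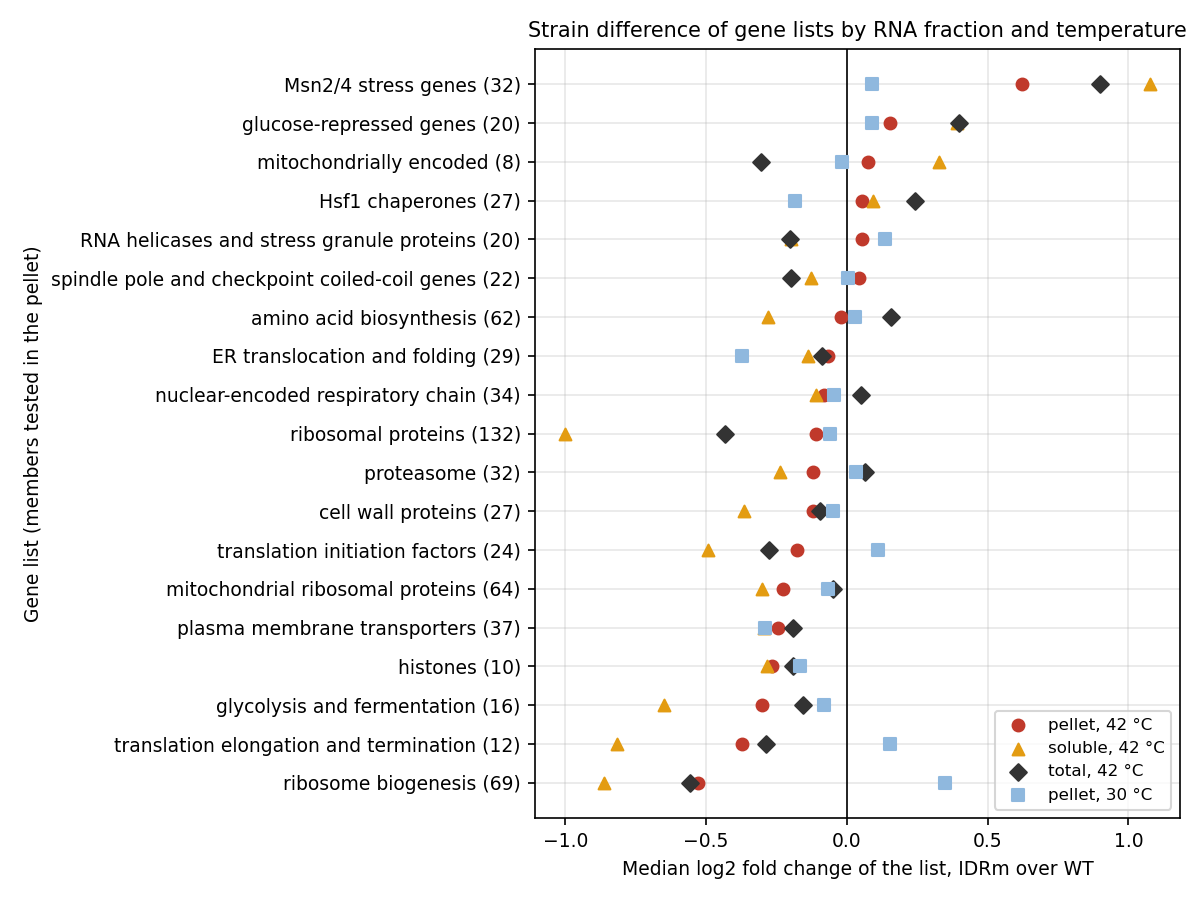
Median log2 fold change, IDRm over WT, of each gene list in pellet, soluble and total RNA at 42 °C and in pellet RNA at 30 °C, with the number of members tested in the pellet in parentheses. The pellet medians at 42 °C run from -0.53 for ribosome biogenesis to 0.62 for Msn2/4 stress genes, and ribosomal proteins are at -0.11 in the pellet but -1.003 in soluble RNA.

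How much mRNA the pellet held was estimated for each harvest, by fitting total RNA as a weighted sum of the soluble and pellet libraries. Libraries with the same replicate number were taken as 1 harvest, which the labels do not state in words. At 42 °C the estimated insoluble share was 22.8% and 18.3% in IDRm and 29.4% and 37.2% in WT. Both IDRm harvests lay below both WT harvests, with means of 20.6% (SD 3.17, n = 2) in IDRm and 33.3% (SD 5.48, n = 2) in WT, a difference of -12.7 percentage points. An alternative added after the data were seen used the pellet, soluble or total libraries of the other replicate number. The difference was then -11.7, -11.8 and -11.6 points. These fits pair the same libraries anew within each strain, so a similar difference of the means is no separate evidence for it. The strains did not overlap in any of them. With the total libraries exchanged the IDRm harvests lay further apart, and the higher was at 28.9%, close to the lower WT harvest at 32.6%. With 2 against 2 no exact two-sided permutation test can go below p = 0.333. At 30 °C the shares were 7.90% and 3.84% in IDRm and 22.3% and 18.1% in WT, and at 40 °C 13.2% and 14.03% in IDRm and 25.3% and 22.3% in WT. The estimate assumes that no transcript is lost in particular during fractionation. Single genes lay off the fitted sum. At 42 °C the root mean square residual, in natural log, was 0.204 and 0.201 in IDRm and 0.203 and 0.275 in WT. In WT at 30 °C it was 0.393 and 0.238.

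**Figure D5:**
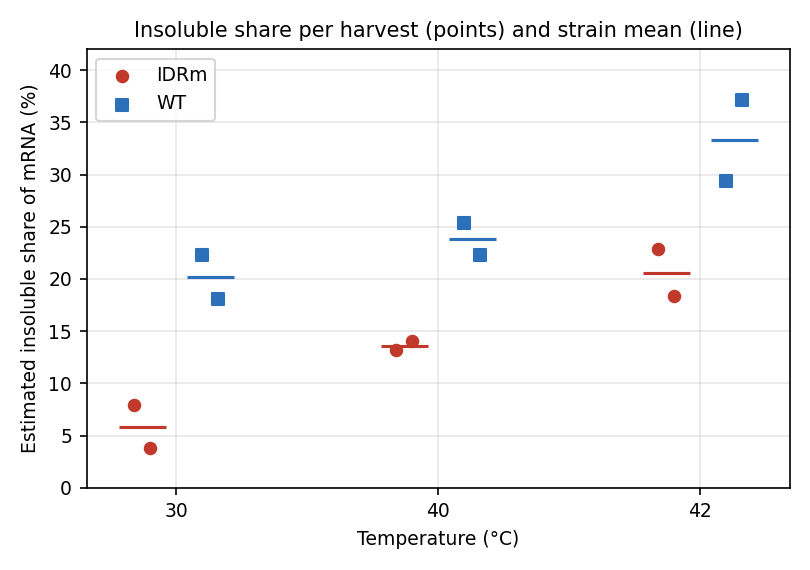
Estimated insoluble share of mRNA in percent at 30, 40 and 42 °C, with a point for each harvest and a line for the mean of each strain (circles IDRm, squares WT). At 42 °C the IDRm points are at 22.8% and 18.3% and the WT points at 29.4% and 37.2%.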

How the data were processed

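RNA sequencing libraries of pellet, soluble and total RNA were analysed, 36 in all and 2 per group of strain, temperature and fraction. Per the submitters' processing notes, the authors mapped reads to R64 with STAR 2.5.2b after demultiplexing by bcl2fastq 2.19.1. The deposited values are raw counts per gene. What counted the reads, on which strand and with which annotation release is not given in the sources used here, so near-identical paralogs and overlapping or antisense genes are uncertain. Of 6697 genes, 6014 matched the R64 annotation by locus tag, and the 683 others held 0.277% of the counts.

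The counts were tested with edgeR 4.0.16 (quasi-likelihood, robust, TMM, filterByExpr at a minimum count of 10, limma 3.58.1, R 4.3.3), with p-values adjusted by Benjamini-Hochberg over all genes tested. The model of pellets and soluble libraries had 24 libraries and 12 residual degrees of freedom, that of total RNA 12 and 6, and that of all libraries 36 and 18. Pellet and soluble effects at 42 °C, and pellet effects at 42 and 30 °C, were compared as interactions in the first model, and pellet and total effects in the last. Named genes are DED1, HSP104, SSA4, HSP42, HSP26, HSP12, HSP30, PAB1, PMA1 and RPL3, by log2 fold change the 8 highest and 8 lowest called coding genes that have a standard name and average at least 32 CPM over the 4 pellets, at most 2 called genes from every list, and the 4 highest and 4 lowest of each interaction. The comparison, lists and rule were chosen with earlier results of these data known. A result for a gene that the rule selects is not reported here. The steps were tested on simulated data. The insoluble share used genes that reach 50 counts in the 3 libraries of a harvest. Alternatives were DESeq2 1.42.0, RLE size factors, no filter on low counts, only the groups compared, a replicate block, removal of GC or length trends, and each library left out. Replicates are duplicate cultures, and libraries of 1 culture share their source.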

Additional observations from a re-analysis of the deposited data

Results flagged for a closer look

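Named genes are given here when the strain effect in the 42 °C pellets differed from the strain effect under another condition by an interaction test with an adjusted p under 0.05 (edgeR). Values are differences of log2 fold changes, IDRm over WT, and are positive where the 42 °C pellet had the larger value.

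Between the pellets at 42 and at 30 °C the value was positive for QCR2 (0.79), GVP36 (1.06), GPH1 (1.20), CTT1 (1.31), PGM2 (1.56), GLC3 (1.74), GSY1 (1.84), HXK1 (2.22) and HXT7 (3.08). It was negative for NSR1 (-1.46), INO1 (-1.39), DBP2 (-1.37), TRM11 (-1.34), PUF6 (-1.31), RPF2 (-1.23) and SIF2 (-1.07).

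Between pellet and soluble RNA at 42 °C the value was positive for DED1 (0.79), RLI1 (0.84), QCR2 (1.14), NAN1 (1.37), PAB1 (1.53), GVP36 (1.62), GCD7 (1.68), VIP1 (1.96), SCW10 (1.96), RPL1A (2.35) and RPS12 (2.67). It was negative for RPP0 (-3.17), ILV6 (-2.03), PIB2 (-2.02), ACH1 (-1.93), SNZ1 (-1.23), DAL1 (-0.69) and BUB3 (-0.62). In soluble RNA the WT replicates at 42 °C had an SD of the log2 difference of 0.656 and the IDRm replicates 0.501, against 0.403 for the IDRm and 0.206 for the WT pellets. The part of this spread in the values was not tested.

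Between pellet and total RNA at 42 °C the value was positive for VIP1 (0.82), SCW10 (0.93), NAN1 (1.06), GVP36 (1.09), GCD7 (1.17) and PAB1 (1.45). It was negative for SNZ1 (-1.31).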

How the results depend on the processing

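The number of genes called in the 42 °C pellets (536) was 517 with RLE size factors, 527 without the filter, 676 with DESeq2, 689 with the GC trend removed and 650 with the length trend removed, the last added after the data were seen. With only the groups compared it was 62, against 44 for soluble RNA (2010), 932 for the 30 °C pellets (182), 0 for pellet against soluble (427) and 6 for pellet against total (20). DESeq2 called 306 in the 30 °C pellets, 659 for pellet against soluble, 205 for 42 against 30 °C (83) and 97 for pellet against total. The last was 4 without the filter, 42 with the GC trend and 31 with the length trend removed. For 42 against 30 °C the number was 140 with the GC trend and 152 with the length trend removed, and with the length trend removed 291 genes were called in the 30 °C pellets. With each library left out in turn, counts ran from 103 to 685 in the 42 °C pellets, 555 to 1333 in total RNA, 27 to 83 in the 30 °C pellets, 188 to 1521 for pellet against soluble, 7 to 106 for 42 against 30 °C and 2 to 474 for pellet against total. The cause was not tested. The difference in insoluble share ran from -16.6 to -8.82 points. Some named genes, among them DED1, HSP104 and PAB1, were not called in the main fit and had no call to lose. Losses are therefore a larger part of the called named genes than of all named genes. Of 57 named genes, 21 lost their call with only the groups compared, and 10, 10, 18 and 18 without IDRm replicate 1, IDRm replicate 2, WT replicate 1 and WT replicate 2.

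The replicate numbers were not taken to pair the strains, since deviations of same-numbered 42 °C pellets correlated at -0.144. With the replicate block 508 genes were called there, and 594 with crossed numbers, an alternative added after the data were seen. For pellet against total the block gave 13, and a block by culture 6. Between pellet and soluble RNA at 42 °C the deviations of same-numbered libraries correlated at 0.543 in IDRm and 0.037 in WT. The main models had 1 term per group, so they treated fractions of 1 culture as independent, also for pellet against soluble.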
